A study of Mus musculus with 2 samples.

Results

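The transcription factor genes Tcf7, Lef1, Klf2, Klf3, Foxo1, Foxp1, Satb1, Id2, Id3 and Bcl6, which mark the balance between naive or memory and effector T cells, were compared between mouse CD4 T cells of the Menin WT and the Menin KO genotype. They were chosen as a list of 10 genes, and every non-control probe whose annotated transcript belongs to one of them was taken. This gave 16 of the 41174 probes of the array, and 10 of the 18434 genes that could be named. Total RNA came from 1 sample of Menin WT cells and 1 sample of Menin KO cells, each on 1 one-colour array. Both samples came from the spleen of female C57BL/6J mice, as naive CD4+ T cells, and differed in the labels by the Menin genotype alone. For the first 2 days the cells received immobilised anti-TCR-beta (3 µg/ml) and anti-CD28 (1 µg/ml) together with IL-2 (2.5 ng/ml). They then stayed in IL-2 for 3 more days. The labels do not give the allele, the Cre driver or the number of mice behind a sample.

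T cells that have not met antigen, and long-lived memory cells, keep a set of transcription factors that activated effector cells turn down. TCF-1 (Tcf7) and LEF-1 (Lef1) are HMG-box factors that bind the same DNA sequence and can recruit beta-catenin or Groucho repressors. FOXO1 and KLF2 hold the trafficking program of resting T cells, FOXP1 maintains quiescence, SATB1 organises chromatin, and KLF3 is a repressor related to KLF2. ID2 and ID3 are small proteins that bind E proteins and keep them off DNA; in T cells ID2 is linked to effector cells and ID3 to memory precursors. BCL6 is a transcriptional repressor that promotes the follicular helper program and stands opposite to Blimp-1 (Prdm1).

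Promoter sequences are shown for 3 members: Tcf7, whose difference was the largest of the 10, and Id2 and Id3, which code for the same kind of protein and differed in opposite directions. Each runs 5′ to 3′ from 250 bases before to 10 bases after an annotated transcription start, from RefSeq on GRCm38.p6. All 10 members matched an entry of that promoter table, with 21 annotated starts. Capitals mark matches, on either strand, to CACCC (the box bound by KLF factors), CAGCTG (an E-box of E proteins) or GTAAACA (a forkhead site).
Tcf7, chr11:52282586-52282845, minus strand: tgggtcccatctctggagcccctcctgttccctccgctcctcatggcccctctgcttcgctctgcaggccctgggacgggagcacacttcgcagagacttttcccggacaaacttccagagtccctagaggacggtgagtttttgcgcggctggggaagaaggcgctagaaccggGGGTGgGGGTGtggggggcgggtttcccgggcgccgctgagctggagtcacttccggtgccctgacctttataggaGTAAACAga
Id2, chr12:25096083-25096342, minus strand: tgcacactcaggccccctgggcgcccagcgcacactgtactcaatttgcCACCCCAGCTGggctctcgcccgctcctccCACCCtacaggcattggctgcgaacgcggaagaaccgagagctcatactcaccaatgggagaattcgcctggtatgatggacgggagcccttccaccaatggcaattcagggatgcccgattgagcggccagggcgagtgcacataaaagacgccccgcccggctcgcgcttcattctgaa
Id3, chr4:136143572-136143831, plus strand: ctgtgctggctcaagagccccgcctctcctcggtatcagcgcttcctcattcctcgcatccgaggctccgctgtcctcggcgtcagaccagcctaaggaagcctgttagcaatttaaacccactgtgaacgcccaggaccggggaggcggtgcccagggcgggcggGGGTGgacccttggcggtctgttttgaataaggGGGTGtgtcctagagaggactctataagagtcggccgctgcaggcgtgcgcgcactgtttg
The forkhead sequence begins at base 2 of the Tcf7 transcript at this start, the second of its 2 annotated starts, and in no other member window. GTAAACA was found in 1 of the 21 member windows of 300 bases, against 3.65% of all 32851 windows. CACCC was found in 17 of the 21 windows against 57.5% of all, and CAGCTG in 4 against 16.3%. Some windows of Lef1 and of Satb1 overlap, so a match can be counted more than once. The GC content of the member windows ran from 43.7% to 76.7%, mostly above the median of 52.7% over all windows. The counts were not adjusted for this. In the Id2 promoter the CAGCTG match directly follows a CACCC match, with no base shared. The TCF/LEF sequence CTTTGAT (3.73% of all windows) and the AP-1 and Bach sequence TGANTCA (7.81% of all), also searched on both strands, had no match in the member windows. A match is a run of letters and not a measured binding site.

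With 1 array per genotype there was no test, and the differences carry neither a p-value nor a spread between samples. The signals below are the processed signal of the scanner software, a background-subtracted brightness on a linear scale, given for WT and then KO. Differences are log2 values, KO minus WT, after each array was set to its 75th percentile of signal (644 for WT and 650.3 for KO). At least 2-fold apart is used as a rule of size, and a gene under it is said to lie between. The software's own error was close to 10% of each signal, which gives the member differences an error of 0.20 to 0.23 on the log2 scale. In probes printed at least 5 times on each array, the pooled SD of the difference over spots was 0.0541 at signals of 100 or more (110 probes) and 0.259 below that (36 probes). Neither figure holds the spread between mice, cultures or labelling reactions. In bulk RNA such as this, fewer cells of a type and less RNA per cell cannot be told apart.

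The arrays were of like depth. The share of non-control spots well above background was 59.5% for WT and 63.5% for KO, and no spot was saturated. Men1, which encodes Menin, was 2.38-fold lower in KO (signals of 1081 and 459), by 1 probe whose place relative to the deletion is not known here. Of 10 listed T cell markers, 9 had a probe and were well above background on both arrays, Cd4 among them (443 and 279). Cd2 (2.31-fold) and Cd5 (3.32-fold) were at least 2-fold lower in KO and the other 7 lay between. The 9 signals summed to 349462 in WT and 277532 in KO. Local background under the member spots lay between 43 and 56 on either array, against array medians of 49 and 50. None of the member spots was flagged as an outlier.

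All 16 member probes were well above background on both arrays, so every difference was measured and none is a bound. On the KO array 10 probes were at least 2-fold lower and 2 were at least 2-fold higher, while 4 were less far apart. Among the 19681 measured probes of named genes, 4.96% were at least 2-fold lower and 9.32% at least 2-fold higher. At least 4-fold lower were 5 member probes (both of Tcf7, both of Foxp1 and 1 of Klf3), against 1.06% of all, and at least 4-fold higher were the 2 of Id2, against 3.33%. By gene, read by its brightest probe, 6 members were lower (Tcf7, Lef1, Klf3, Foxp1, Id3 and Bcl6), 1 was higher (Id2) and 3 lay between (Klf2, Foxo1 and Satb1). Over all 13515 measured genes the shares were 5.14% lower and 10.8% higher, that is 694 against 1459 genes; this split turned to 1701 against 601 with normexp, a model-based background correction, as given. The median difference of the 10 genes was -1.54, beside -0.01 over all genes. That the factors of this list were mostly lower was known when the list was drawn up, so the count is a description.

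**Figure D1:**
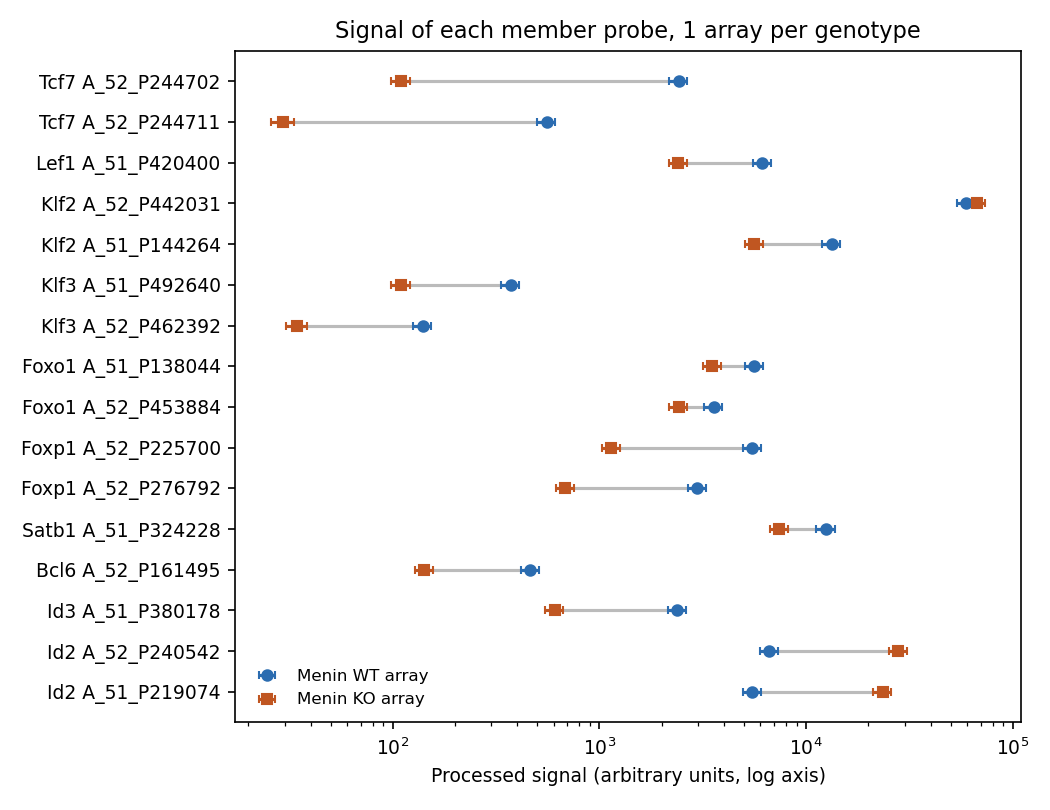
Processed signal (log axis, arbitrary units) of each member probe on the Menin WT array (circles) and the Menin KO array (squares), 1 array each; bars are the scanner software's error of the spot. The KO square lies left of the WT circle for 13 of the 16 probes, farthest for both Tcf7 probes, and right of it for both Id2 probes and 1 Klf2 probe.

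Tcf7 and Lef1 are the HMG-box pair. Tcf7 had signals of 2413 (WT) and 109.5 (KO) by probe A_52_P244702, and of 556 in WT and 29.4 in KO by probe A_52_P244711. Both probes read the KO array far below WT, at 4.50% and 5.24% of its signal. The log2 differences were -4.47 and -4.25, that is 22.2-fold and 19.1-fold lower in KO, with software errors of 0.21 and 0.23. A total of 9 of the 13515 measured genes, Tcf7 included, were at least as far down. The size rests on the background correction, since the KO signals were dim: with normexp, here with an added offset of 50, the folds were 13.1 and 6.86, and 14.7 and 6.78 with aberrant local backgrounds replaced. Lef1, read by 1 probe, had signals of 6113 (WT) and 2411 (KO), 2.56-fold lower (-1.36). Relative to Lef1, Tcf7 by its brighter probe was thus 8.69-fold lower in KO than in WT. Dividing an array by a constant leaves this ratio the same, but the background correction does not. With normexp and aberrant backgrounds replaced, Lef1 was at -1.26 and the Tcf7 probes at -3.88 and -2.76.

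Genes around this pair were mostly close to equal. Of 12 listed partners and relatives of TCF-1 and LEF-1, 11 were measured. Of these, 1 was at least 2-fold higher and none lower; 9 lay between, and the bound of 1 stayed under 2-fold. The higher one was Tle2, a Groucho family corepressor, with signals of 112 (WT) and 289 (KO) (2.56-fold). Ctnnb1, encoding beta-catenin, had a difference of -0.33 and Axin2, a classical target of the TCF and beta-catenin complex, one of -0.83 at dim signals of 28.2 and 16.0; both were named after their values were seen. The list median was -0.18.

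Likeness was sought among genes well above background on both arrays, with predicted genes and clone names left out. The genes nearest to Tcf7 in their difference were Ifit3, an interferon-stimulated gene (-4.60), Nt5e, encoding CD73 (-4.11), and Prim2, a primase subunit (-4.03). Nearest to Id2 were Mir22hg (2.06), Tceal8 (2.05) and Rasl12 (2.05). This likeness is closeness of 1 log2 difference over 2 arrays.

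**Figure D2:**
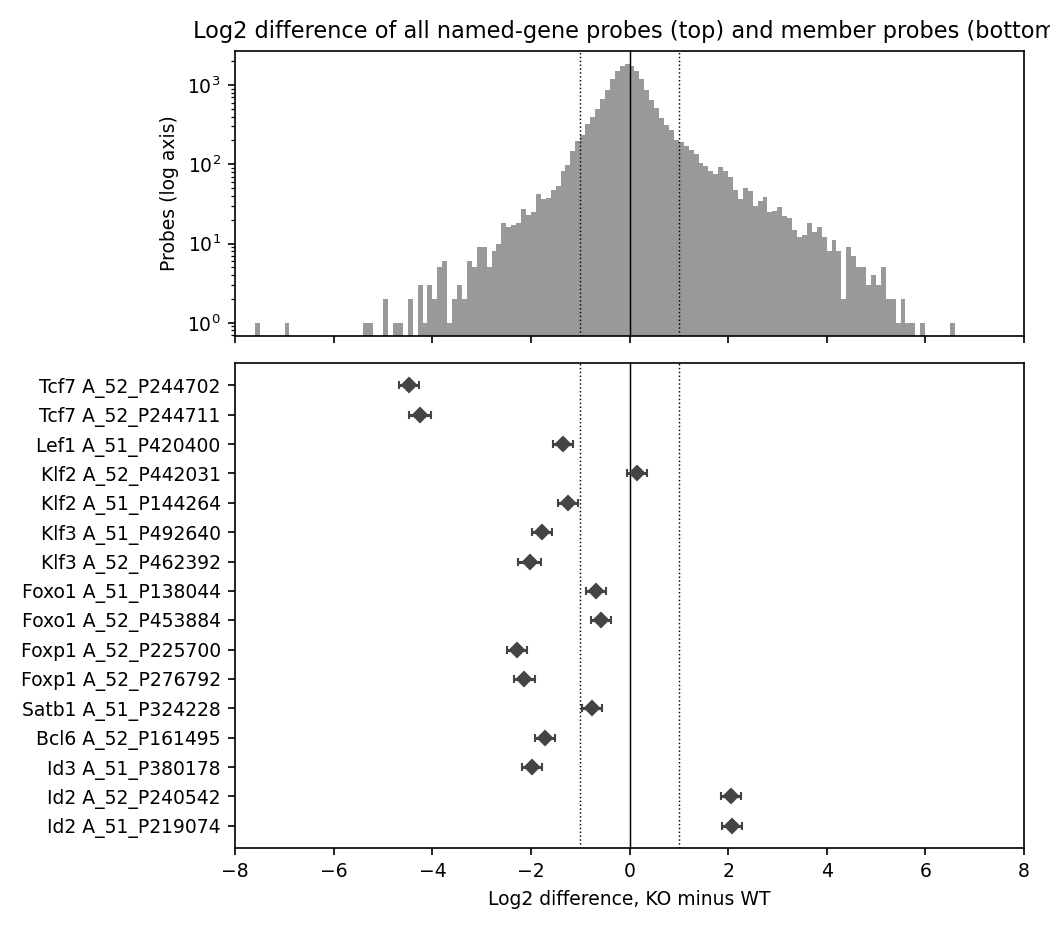
Log2 difference, KO minus WT, of the 19681 measured probes of named genes (top, number of probes on a log axis, in narrow bins) and of the 16 member probes (bottom, bars are the error from the scanner software); dotted lines mark 2-fold. The Tcf7 probes lie in the far left tail at -4.47 and -4.25, and the 2 Id2 probes lie at 2.08 and 2.05 on the other side.

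The factors of quiescence and trafficking differed among themselves. Foxp1, which keeps naive T cells quiescent, had signals of 5469 in WT and 1140.2 in KO by probe A_52_P225700, and of 2970.3 and 684 by probe A_52_P276792. The probes gave 4.84-fold and 4.38-fold lower values in KO, differences of -2.28 and -2.13. Foxo1, the forkhead factor that activates Il7r, had signals of 5609 and 3512 by probe A_51_P138044 and 3562 and 2415 by probe A_52_P453884. It was 1.61-fold and 1.49-fold lower, and so lay between. Relative to Foxo1, Foxp1 was 3.00-fold lower in KO than in WT. Satb1, a chromatin organiser of T cell genes with 1 probe, had signals of 12462 (WT) and 7424 (KO), 1.69-fold lower (-0.76), and also lay between.

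Of 12 listed forkhead relatives 10 were measured, of which 2 were at least 2-fold lower and none higher; the median was -0.31. The lower ones were Foxm1, a factor of the cell division program (3017 in WT and 1174 in KO, 2.59-fold), and Foxp3, the lineage factor of regulatory T cells (at least 2.85-fold, not well above background in KO). Among 12 enzymes upstream of FOXO1, such as the PI3-kinase subunits and the AKT kinases, 11 lay between and the median was -0.01. The exception was Sgk1, a kinase that phosphorylates FOXO proteins, with signals of 1349.8 (WT) and 2829.7 (KO) (2.08-fold higher).

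Klf2 was the member whose probes disagreed. Probe A_51_P144264 had signals of 13260.3 (WT) and 5603 (KO), 2.39-fold lower (-1.26). Probe A_52_P442031 had 59615 in WT and 66869.5 in KO, 1.11-fold higher (0.15, within the software's error of 0.20). Both carry the same transcript accession, and the files used here do not give the probes' places in it. The mean over the 2 probes was -0.55, so the gene lay between under either rule. The gap between the probes was 1.41 on the log2 scale, while the other 5 members with 2 probes had gaps of 0.03 (Id2), 0.11 (Foxo1), 0.14 (Foxp1), 0.22 (Tcf7) and 0.25 (Klf3). Of 3335 genes with exactly 2 probes for 1 transcript, measured on both arrays, 1.2% had a gap at least as wide as that of Klf2, and the median gap was 0.11. Of the 411 such genes with a probe at least 2-fold apart, 9.49% had.

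**Figure D3:**
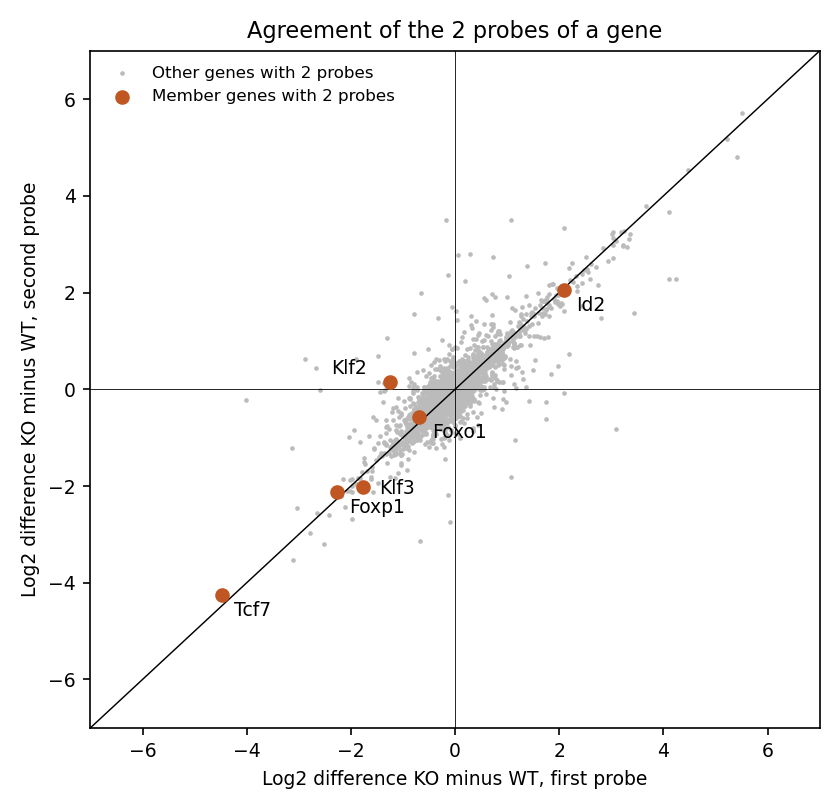
Log2 difference, KO minus WT, of the first against the second probe (in order of probe name) for 3335 genes with 2 probes of the same transcript; the line marks equality. Tcf7, Foxp1, Klf3, Foxo1 and Id2 lie along the line, and Klf2 lies off it at -1.26 and 0.15.

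Klf3, the repressor related to KLF2, was lower by both of its probes. The signals were 372 in WT and 109.6 in KO by probe A_51_P492640, and 139 and 34.5 by probe A_52_P462392. These are 3.42-fold and 4.08-fold differences (-1.78 and -2.03). With normexp and aberrant backgrounds replaced the folds were 2.40 and 2.11, still past 2-fold.

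Known target genes of FOXO1 and KLF2 went different ways. Of 8 listed, Klf2 included, 2 were past 2-fold downwards and none upwards, and the median was -0.07 (-0.42 with each gene as the mean of its probes). Il6ra, the IL-6 receptor chain, was among the lower ones, 3.03-fold at dim signals (96.7 and 32.2). By contrast Il7r, which binds the survival factor IL-7, was 1.78-fold higher (4300.2 and 7736), and S1pr1, the egress receptor that KLF2 activates, 1.48-fold higher (1814 and 2715). Ccr7, the chemokine receptor for lymph node entry, had a difference of -0.29; these last 3 were named after their values were seen.

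Id2 and Id3 differed in opposite directions. Id2 had signals of 6633 (WT) and 27808 (KO) by probe A_52_P240542, and of 5485 and 23461 by probe A_51_P219074. It was 4.15-fold and 4.24-fold higher in KO, and was the one member with a higher call. Id3, with 1 probe, had signals of 2383 (WT) and 608 (KO), 3.95-fold lower (-1.98). The Id2 to Id3 ratio was therefore 16.4-fold higher on the KO array, a log2 difference of 4.04 with a software error of 0.29. Beside these values, 513 of the 13515 measured genes (3.8%) were at least as far up as Id2 and 163 (1.21%) at least as far down as Id3.

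The E proteins that ID proteins bind were read as well. Tcf12, encoding HEB, had signals of 2606 (WT) and 1176 (KO) by its brightest probe, 2.24-fold lower, with its other probe at -1.15. Tcf3, encoding E2A, had a difference of -0.67 and Tcf4, encoding E2-2, one of 0.66. Among the other ID genes, Id1 had a difference of -0.32 at dim signals (44.0 and 35.5), and Id4 was on neither array well above background. Of this list of 5, then, 4 were measured, with 1 at least 2-fold lower, 3 between and a median of -0.50.

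Some markers of other cell types were higher in KO, as Id2 was, and some of those cells are known to express Id2. Over all measured genes 10.8% were at least 2-fold higher. Of 7 natural killer markers, all measured, 4 were past 2-fold upwards, 2 were not, and for 1 the bound stayed under 2-fold. Their signals summed to 1256 in WT and 7386 in KO, led by Fcer1g (669 and 5087), while Ncr1, the defining receptor, was not well above background in WT and had a signal of 21.7 in KO. Cd8a, the one CD8 marker with a probe, had 312 in WT and 3213 in KO. For mast cells and basophils 3 of 5 measured markers were higher, with sums of 103 and 648 and Cpa3 the brightest; Ms4a2 was not well above background on WT or KO. For dendritic cells 1 of 4 was higher (Itgax, 20.0 and 623), with sums of 170.2 and 788. Xcr1 and Zbtb46 each had a dimmer probe past 2-fold downwards, at -1.40 and -2.95. The median of the dendritic cell markers was 0.34, and -0.15 with each gene as the mean of its probes. Macrophage markers had 3 of 7 higher and 3 below 0 (Csf1r, Mpeg1 and Lyz2, the last as a bound), with a median of 0.00. Their sums were 369 and 689 (brightest Cd14). B cell markers had 2 of 5 higher and sums of 931 and 1686 (brightest Cd79b), while Pax5, which defines B cells, was on neither array well above background. The part of such cells in the Id2 difference, or in those of the other members, was not tested.

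Bcl6, whose product is required for follicular helper T cells, had signals of 463 (WT) and 142 (KO), 3.29-fold lower (-1.72, 1 probe). Its antagonist Prdm1, encoding Blimp-1, went the other way, with 186 in WT and 1289 in KO (6.88-fold higher). Of 8 genes listed around BCL6, among them its corepressors and Prdm1, 2 were past 2-fold upwards and none downwards (median 0.04). Over all measured genes 10.8% were higher and 5.14% lower. The other higher gene was Zbtb32, a zinc finger repressor of lymphocyte activation (6106 and 23267, 3.78-fold). The corepressors that bind BCL6 lay between, with Bcor at -0.29 and Ncor1 at -0.33.

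The members can be set beside the factors of effector cells. Of 14 such genes, all measured, 6 were past 2-fold upwards in KO and 2 downwards, against 10.8% and 5.14% of all measured genes. The median of all 14 was 0.88. Besides Prdm1, Maf, which drives IL-4 and IL-10, had the largest difference upwards (136 in WT and 1868 in KO, 13.6-fold), although its other probe gave a difference of 2.32. Batf, Bhlhe40, Nfil3 and Zeb2 were also past 2-fold. Those lower were Ikzf2, encoding Helios (586 and 155, 3.82-fold), whose 4 probes ran from -1.93 to -0.74, and Eomes, a T-box factor of cytotoxic and memory cells (1031 and 452, 2.30-fold). Tbx21, encoding T-bet, had a difference of 0.19. The medians of these lists lay on opposite sides of 0, and Id2, the effector-linked member, was higher. The lists were drawn up with earlier results of these data known, so this is a description only.

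Genes of the naive and memory surface and of quiescence were lower more often than higher. Of 19 listed, 18 were measured. Of these, 6 were past 2-fold downwards and none upwards (median -0.86), against 5.14% and 10.8% of all measured genes. Dapl1 (2109 and 16.8, 126-fold) and Nsg2 (5237 and 175, 30.3-fold), both transcripts typical of naive T cells, had the largest differences. The size of the Dapl1 fold rests on the background correction, since its KO signal was dim. Cd27, Il6ra and Igfbp4 were also past 2-fold. Dapl1 and Nsg2 were known to be low in these data when the list was drawn up. Bach2, a repressor of effector genes that the series title places in an axis with Menin, had signals of 4643 (WT) and 604 (KO), 7.76-fold lower. Of the 10 members, Tcf7 alone had a larger difference downwards than Bach2.

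**Figure D4:**
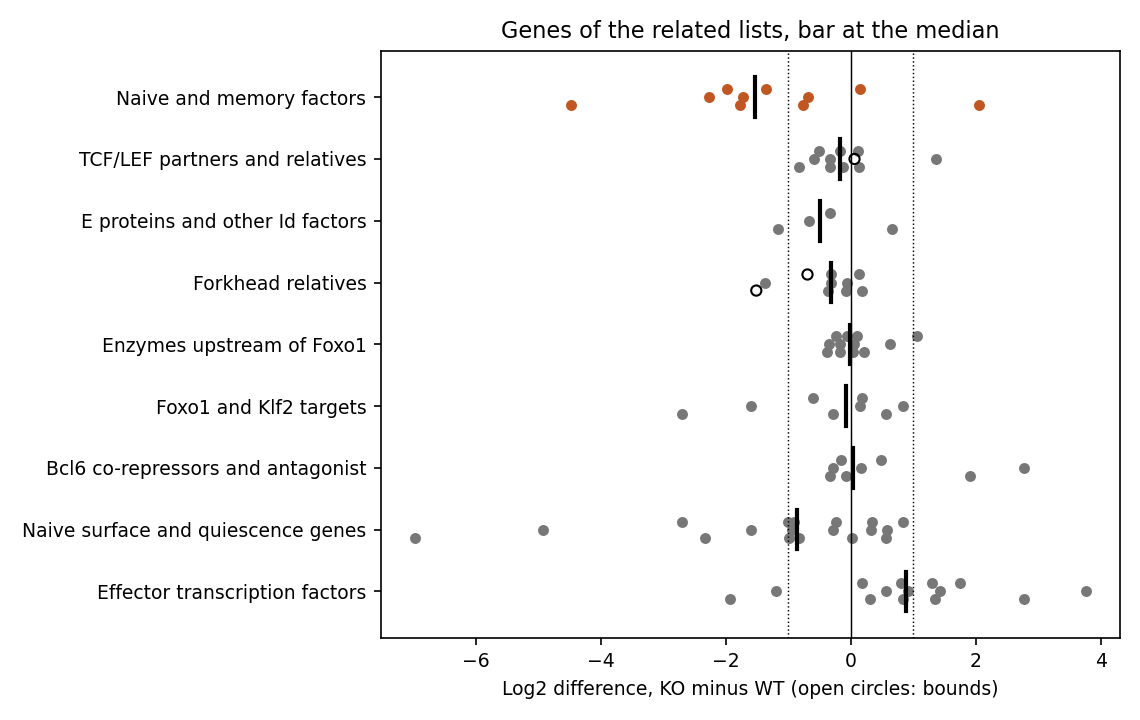
Log2 difference, KO minus WT, of each measured gene of the 10 naive and memory factors and of the related lists; bars mark list medians, open circles are bounds and dotted lines mark 2-fold. The naive and memory factors have a median of -1.54, and the effector transcription factors, at the bottom, one of 0.88.

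The member values were also read under other ways of processing the arrays, some of which could not change them. The number of member probes at least 2-fold lower was 10 under every scaling, filter and value source tried at that size rule, except 9 with normexp as given, where Klf2 probe A_51_P144264 moved from -1.26 to -0.98. The number at least 2-fold higher was 2 under each of them. Over all probes of named genes the shares moved more. The share at least 2-fold lower was 4.96% as reported, 14.3% with normexp as given and 2.43% with aberrant backgrounds replaced. The share at least 2-fold higher was 9.32%, 3.79% and 4.76% in the same order. By the authors' own value table the member median was -1.51, as it was with a percentile over detected probes. In the authors' values every member difference was shifted from the main one by the same constant. They are therefore no separate check of these counts. The filters on dim probes and accessions could not change these values. All 16 member probes were well above background on both arrays and carry NM_ accessions. Scaling by a constant shifts all probes alike. Both normexp corrections moved the median of the member probes from -1.54 to -1.23.

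**Figure D5:**
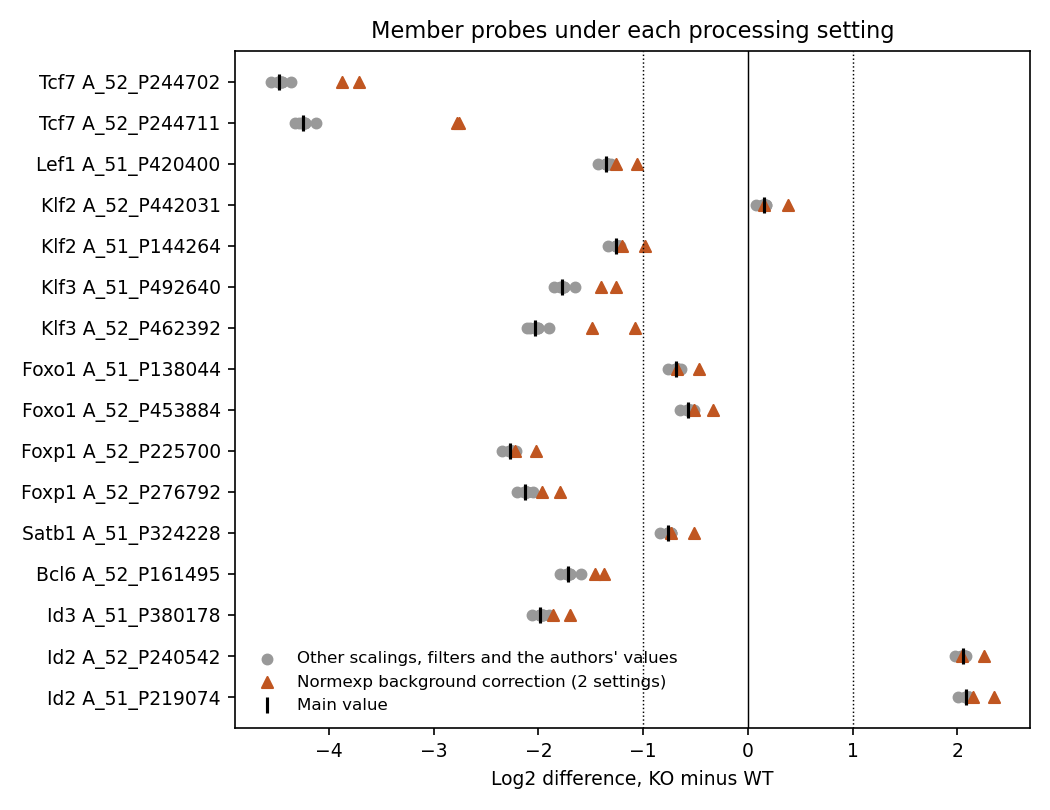
Log2 difference, KO minus WT, of each member probe as reported (black ticks), under both normexp corrections (triangles) and under the other scalings, filters and the authors' values (grey points); dotted lines mark 2-fold. The widest spread is that of the dim Tcf7 probe A_52_P244711, from -4.33 to -2.76, and every probe but those of Id2 and Klf2 A_52_P442031 stays below 0.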

How the data were processed

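Gene expression was measured on 2 Agilent mouse arrays, 1 of Menin WT and 1 of Menin KO cells, with 500 ng of total RNA labelled with Cy3 per the labels' protocols. The intensity values are the processed signals the authors deposited, which per the file headers came from Feature Extraction, version 10.7.3.1 (per the submitters' processing notes, 10.7), with background subtracted and no scaling between arrays; the headers name mm9 for the probe annotation. The authors' deposited value table holds log2 values. The 0 or 1 spot flags are those the authors deposited.

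Spots with an outlier flag were left out (115 on WT and 103 on KO of 43379 non-control spots), log2 signals were set to each array's 75th percentile, and spots of a probe were averaged. Accessions without versions were matched to RefSeq genes of GRCm38.p6: 27050 of 41174 probes had 1 symbol and 14124 had none, so a member's transcript under another accession is not counted. A gene took its brightest probe. A probe well above background on 1 array has a bound, the bright value against the higher of the dim value and the lowest detected level. There was no test, since each group had 1 array, and p-values are not given. The members, lists and rules were chosen with earlier results of these data known. Named genes of a list were up to 2 past 2-fold in each direction, and for other cell types the brightest marker; those named beyond this rule (such as Batf, Bhlhe40, Nfil3, Zeb2, Cd27 and Igfbp4) were chosen after their values were seen. Alternatives were normexp (limma 3.58.1, R 4.3.3), with and without backgrounds over 200 replaced, quantile, median and loess scaling, a percentile over detected probes, no scaling, the authors' values, filters on dim probes, kept flags, the mean over probes, NM_ accessions only, and other size rules. The steps were run on a simulated pair of arrays, made from the WT levels with spot noise and set shifts. It held no difference in background, labelling or cells, so it checks the calculation only. Some genes counted in the lists are not reported here by name. Normexp used median spot signals, since the files used here hold no mean signal column. Python 3.11.15 and numpy 2.4.6 were used.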

Additional observations from a re-analysis of the deposited data

How the results depend on the processing

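No paired analysis was possible because each group had 1 array, and for the same reason no replicate could be left out. No member with a difference of at least 2-fold changed direction under any alternative. The median of the member probes was -1.54 and became -1.23 with normexp as given and -1.23 with aberrant backgrounds replaced; the median of the member genes was -1.54 and became -1.23 and -1.26. Normexp adds an offset of 50 to both arrays, which by construction draws dim signals together. At a size rule of 4-fold, 5 member probes were lower (1.06% of all probes) and 2 higher (3.33% of all). With normexp and aberrant backgrounds replaced, Foxp1 probe A_52_P276792 was 3.90-fold and Klf3 probe A_52_P462392 2.11-fold lower, both under 4-fold. Both Id2 probes stayed past 4-fold there. At 1.5-fold, 12 were lower (12.9% of all probes) and 2 higher (15.6% of all). With each gene as the mean of its probes, Klf2 changed from 0.15 to -0.55. Over all genes, 694 were at least 2-fold lower and 1459 higher; normexp as given turned this to 1701 and 601, normexp with backgrounds replaced gave 369 and 760, and no filter on dim probes gave 1113 and 2121. The WT normexp fit rests on 6 spots with a local background over 200. No setting moved the median of all genes by over 0.1.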

Other observations

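The nearest measured protein-coding genes on either side of each member, taken from the order of genes in the RefSeq table, gave a further view of the same loci. Of these 20 neighbours 17 lay between, 2 were at least 2-fold lower and 1 was at least 2-fold higher, with a median difference of -0.02. Over all measured genes 5.14% were lower and 10.8% higher, so these counts are a description of the neighbours only. Beside Tcf7 lay Skp1, a ubiquitin ligase subunit (-0.26), and Vdac1, the mitochondrial outer membrane channel (0.21). Beside Id2 lay Kidins220 (0.14) and Rnf144a (-0.52), and beside Id3 the ribosomal protein gene Rpl11 (0.02) and the cell cycle factor E2f2 (-0.75). The lower neighbours were Tlr1, a Toll-like receptor beside Klf3 (2.42-fold), and Rtp4, an interferon-stimulated gene beside Bcl6 (3.68-fold). The higher one was Frmd4b beside Foxp1 (3.59-fold), where Foxp1 itself was 4.84-fold lower.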
